A study of Mus musculus with 12 samples.

Results

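The genes described here carry the symbols of translation initiation factors of the mouse and of proteins that act on them or share the name. Kinases of eIF2, the 4E-binding proteins, the exon junction helicase Eif4a3 and the pseudogene Eif4a3l2 are among them. All are called initiation factor genes below for short. They were taken by symbol, as every gene named Eif followed by a digit from 1 to 6 that was listed at all 3 ages. Eif2s3x, Eif2s3y and pseudogenes named as such were left out. The rule itself used no measured value, but it was chosen with earlier results of these data known. The deposited lists differ between ages, and whether low reads kept a gene off a list could not be checked. The rule gave 53 genes of the 25834 listed at all 3 ages. Of them, 51 passed the filter on low values and were tested. The groups were male pups at postnatal day 0, 14 and 28 (P0, P14 and P28), and each age had 4 biological replicates. Any difference between the ages in preparation or sequencing cannot be told apart from age here. All 12 pups carried the genotype CAG-Sun1/sfGFP +/- and NEX-Cre +/-, so no group without the tag or without Cre was compared. NEX-Cre sits in Neurod6, whose product is a transcription factor in developing excitatory neurons, and Cre switches on a fluorescent protein of the nuclear envelope by which nuclei are purified (INTACT). Library names at P0 and P14 contain WT and those at P28 do not, and the labels do not say to which locus WT refers. Polyadenylated RNA of the purified forebrain cortical nuclei was sequenced from stranded libraries, within a study of the histone variant H2BE.

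Translation of most mRNAs begins when a cap-binding complex of eIF4E, the scaffold eIF4G and the helicase eIF4A recruits the small ribosomal subunit. That subunit carries eIF3, eIF1, eIF1A and the initiator tRNA bound to eIF2, and it scans to the start codon, where eIF5 and eIF5B lead to joining of the large subunit. Phosphorylation of eIF2 blocks its recharging by eIF2B and lowers initiation in general, and the 4E-binding proteins hold eIF4E away from eIF4G until the kinase mTOR phosphorylates them. In neurons both switches are known for their part in synaptic plasticity and in the response to stress.

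Levels are given as scaled CPM, a gene's reads relative to all reads of its library, in the usual CPM unit, after 1 further scaling factor per library. They are levels per library and not per transcript length unless stated. Changes are log2 fold changes ± SE of scaled CPM plus 0.5 from limma, with p adjusted by Benjamini-Hochberg over the 15734 genes tested and 0.05 as the threshold. The words rose and fell are kept for changes past it. Recovered reads numbered 13195973 to 16599217 per P0 library, 25486861 to 33611769 per P14 library and 21569262 to 31215435 per P28 library, and 3 reads, the limit that a count of 0 allows, equalled 0.0858 to 0.236 scaled CPM. Such limits cover counting error only. P14 replicate 2 stood apart, with a Pearson correlation of 0.944 to 0.962 with the other P14 libraries across genes, which are not independent replicates, where every other pair of one age reached at least 0.983. Of the 51 genes tested, 21 were lower and 20 higher in that library than in each of the other 3 P14 libraries. According to the labels, P28 replicate 4 and P0 replicate 1 were each merged. Neurod6 was read in all 12 libraries. Its scaled CPM was 282 ± 5.86 in P0, 62.5 ± 9.76 in P14 and 53.8 ± 3.31 in P28 libraries (SD, n = 4).

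The summed level of markers of cell types other than excitatory neurons also moved with age. The 6 vessel markers summed to 1083 to 1942 scaled CPM in P0, 179 to 292 in P14 and 134 to 162 in P28 libraries, and the 6 markers of progenitors and cycling cells to 159.9 to 224, 26.3 to 62.1 and 18.3 to 22.8. The 7 oligodendrocyte markers summed to 78.7 to 90.6, 956 to 2360.2 and 1746 to 2835, with Opalin at 0 in all P0 libraries. The 4 precursor markers of that lineage summed to 511 to 618, 119 to 148 and 81.2 to 108. The 6 astrocyte markers summed to 393 to 561, 389 to 1095 and 541 to 679, the 6 microglia markers to 19.3 to 28.6, 36.6 to 75.9 and 53.2 to 66.3, and the 8 markers of inhibitory neurons to 329 to 346, 216 to 346 and 287 to 377. At P14 against P0 all 7 oligodendrocyte and all 6 microglia markers rose. All 6 vessel, 5 of 6 progenitor and cycling and 3 of 4 precursor markers fell. Of the 8 inhibitory markers 2 rose and 2 fell (log2 fold changes −3.01 to 3.97), and of the 6 astrocyte markers 3 rose and 0 fell. At P28 against P0, 2 astrocyte markers rose and 2 fell. Of all genes tested, 34.4% rose and 34.5% fell in the first comparison and 35.7% and 35.6% in the second. The 8 excitatory markers summed to 1221 to 1497, 3295 to 4353 and 4593 to 5014, but at P14 against P0 only 3 of them rose (Slc17a7, Nrgn and Camk2a) and 4 fell (Neurod6, Neurod2, Slc17a6 and Tbr1), with a median log2 fold change of −0.49. The part of these other cells in any change below was not tested, and in bulk nuclei fewer cells of a type and less RNA per cell cannot be told apart.

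Between P0 and P14 most of the initiation factor genes fell, with genes of kinases and inhibitors counted among them. Of the 51 tested, 33 fell and 2 rose (Eif2d and Eif4e3), which is 64.7% and 3.92% of them, whereas of all genes tested 34.5% fell and 34.4% rose (68.9% in either direction). The median log2 fold change was −0.42 for these genes and 0.01 for all genes tested, and 43 of the 51 had a value below 0. In 30 genes all 4 P14 libraries lay below all 4 P0 libraries, and in 2 all lay above, which is 58.8% and 3.92% of those tested, with 30.2% and 29.2% of all genes tested without overlap in these directions. A fall of at least 2-fold was seen in 11 genes (Eif2ak2, Eif3a, Eif3c, Eif3e, Eif3f, Eif3h, Eif3l, Eif4a1, Eif4ebp2, Eif4g1 and Eif4g2) and a rise of that size in Eif4e3. These are 21.6% and 1.96% of the genes, and of all genes tested 17.0% fell and 16% rose by as much, so the share of 2-fold falls was near that of all genes. Summed over all 53 genes, the level was 5899, 5657, 6233 and 5858 scaled CPM in the P14 libraries, against 9427, 9229.8, 9177 and 10149 in the P0 libraries. The fall held in every alternative setting that tested the gene for 30 of the 33 genes, the exceptions being Eif2a, Eif3g and Eif4ebp1. There were 27 such settings, and 26 for Eif2ak2 and Eif4ebp1, which the filter of mean 5 scaled CPM left out.

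**Figure D1:**
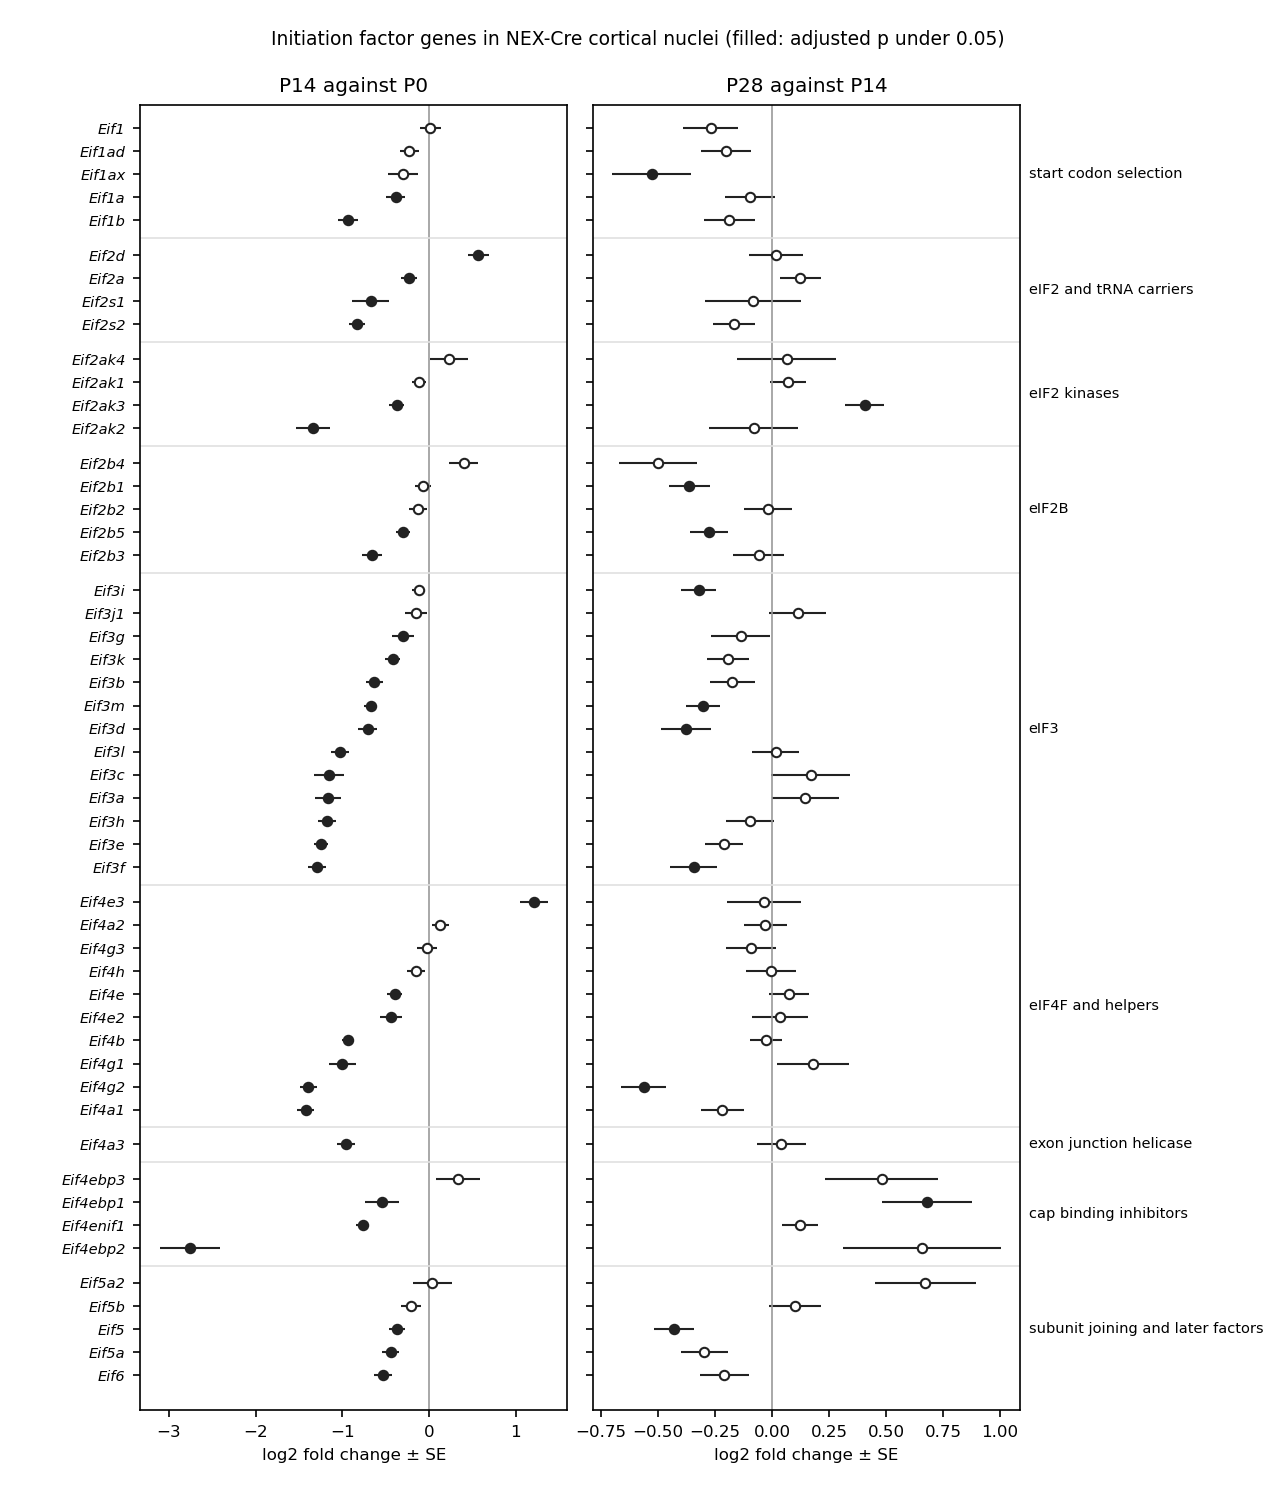
Log2 fold changes ± SE (limma) of the 51 tested initiation factor genes, by role, for P14 against P0 (left) and P28 against P14 (right), on axes of different width, with points past an adjusted p of 0.05 filled. On the left most points lie below 0 and Eif4e3 and Eif2d are filled above it, and on the right 9 filled points lie below and 2 above.

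Of these genes Eif4g2 took the most reads at P0. It encodes a relative of the eIF4G scaffold that lacks the eIF4E-binding region and serves initiation on a subset of mRNAs (chr7:111067985-111083030, GRCm38.p6). Its level was 2008, 2119, 2061 and 2263 scaled CPM at P0, 839.5, 672, 886 and 836 at P14 and 575, 543, 528 and 529 at P28. No library of one age overlapped another age. It fell at P14 (log2 fold change −1.39 ± 0.10, adjusted p = 3.70e-08, 0.381-fold) and fell again at P28 against P14 (log2 fold change −0.56 ± 0.10, adjusted p = 0.00205). Eif4g2 made up 21.3 to 23.0% of the summed level of the 53 genes in P0 libraries, 11.9 to 14.3% in P14 libraries and 10.02 to 10.54% in P28 libraries. The canonical scaffold gene Eif4g1 (chr16:20672720-20692883) stood at 414, 520.3, 571 and 602 scaled CPM at P0, 305, 191, 313 and 252 at P14 and 320.4, 291, 268 and 302 at P28. It fell at P14 (log2 fold change −1.001 ± 0.16, adjusted p = 7.04e-05), with P14 replicate 2 lowest, and the log2 fold change without that library was −0.85. Eif4g3, the gene of a further scaffold (chr4:137991779-138207086), had 344, 491, 354 and 352 scaled CPM at P14, against 420.0, 375, 367 and 388 at P0. Those groups overlapped, with P14 replicate 2 highest, and the change was −0.02 ± 0.11 (adjusted p = 0.867, 95% confidence interval −0.26 to 0.22). Without that library it was −0.14.

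Of the genes of the eIF4A helicases, which unwind the leader of an mRNA, Eif4a1 fell at P14 and Eif4a2 did not pass. Eif4a1 (chr11:69666936-69672423) had 634, 574, 568 and 629 scaled CPM at P0, 240.2, 189.8, 244 and 226 at P14 and 209, 188, 181 and 192 at P28. All P14 libraries lay far below all P0 libraries, and P28 overlapped P14. The fall at P14 was 0.373-fold (log2 fold change −1.42 ± 0.09, adjusted p = 2.16e-08), and the later step did not pass (−0.22 ± 0.09, adjusted p = 0.126), although it did without P14 replicate 2 (adjusted p = 0.00924). Eif4a2 (chr16:23107468-23114132), which encodes a near-identical helicase, had 509, 517, 438 and 491 scaled CPM at P0, 478, 565, 562 and 535 at P14 and 470.2, 518, 533 and 577 at P28. Its 3 ages overlapped, and its change at P14 was 0.13 ± 0.09 (adjusted p = 0.234, 95% confidence interval −0.07 to 0.34). The sources used here do not say how reads matching both genes were counted. Among the proteins that stimulate the helicase, Eif4b (chr15:102073773-102097173) had 198, 199, 211 and 199 scaled CPM at P14, against 386, 372, 386 and 407 at P0. These groups stood well apart, and Eif4b fell (log2 fold change −0.94 ± 0.07, adjusted p = 5.41e-08). Eif4h (chr5:134619872-134639409), its smaller relative, had 366, 285, 390.5 and 356 scaled CPM at P14, against 389.6, 345, 374 and 437 at P0. The 2 ages overlapped (−0.15 ± 0.11, adjusted p = 0.232), and without P14 replicate 2, the lowest P14 library, the change was −0.05.

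Eif4e, which encodes the cap-binding protein itself (chr3:138526191-138559696), had 78.2, 70.7, 84.03 and 89.9 scaled CPM at P14, against 102, 101, 106 and 116 at P0, and fell by a small amount (log2 fold change −0.40 ± 0.09, adjusted p = 0.00108). Eif4e2 (chr1:87213911-87240488), whose product binds the cap without eIF4G and is known as a repressor, fell likewise (log2 fold change −0.44 ± 0.12, adjusted p = 0.00607). It had 71.9, 45.1, 67.7 and 66.4 scaled CPM at P14, against 85.8, 79.2, 86.1 and 84.8 at P0, and the lowest value was again that of P14 replicate 2, without which the log2 fold change was −0.29 (adjusted p = 0.00178). Eif4e3, another cap-binding relative (chr6:99621879-99692873), went the other way. Its level was 8.85, 9.33, 11.3 and 7.18 scaled CPM at P0, 17.7, 29.4, 19.1 and 21.7 at P14 and 19.6, 21.2, 21.2 and 22.02 at P28. All P14 libraries lay above all P0 libraries, with P14 replicate 2 highest, and P28 stayed within the P14 range. It rose at P14 (log2 fold change 1.21 ± 0.16, adjusted p = 1.94e-05) and did so without that library as well (log2 fold change 1.06). The locus of Eif4e3 overlaps the lncRNA gene Gm52869 over 7166 bases and Gpr27 over 507 bases, and Gpr27 fell in the same step (−1.51 ± 0.09). The sources used here do not say which strand was counted. Over the 10 genes of the cap-binding complex and its helpers, 6 fell (60%) and 1 rose at P14, with a median of −0.42. Of all genes tested 34.5% fell and 34.4% rose.

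**Figure D2:**
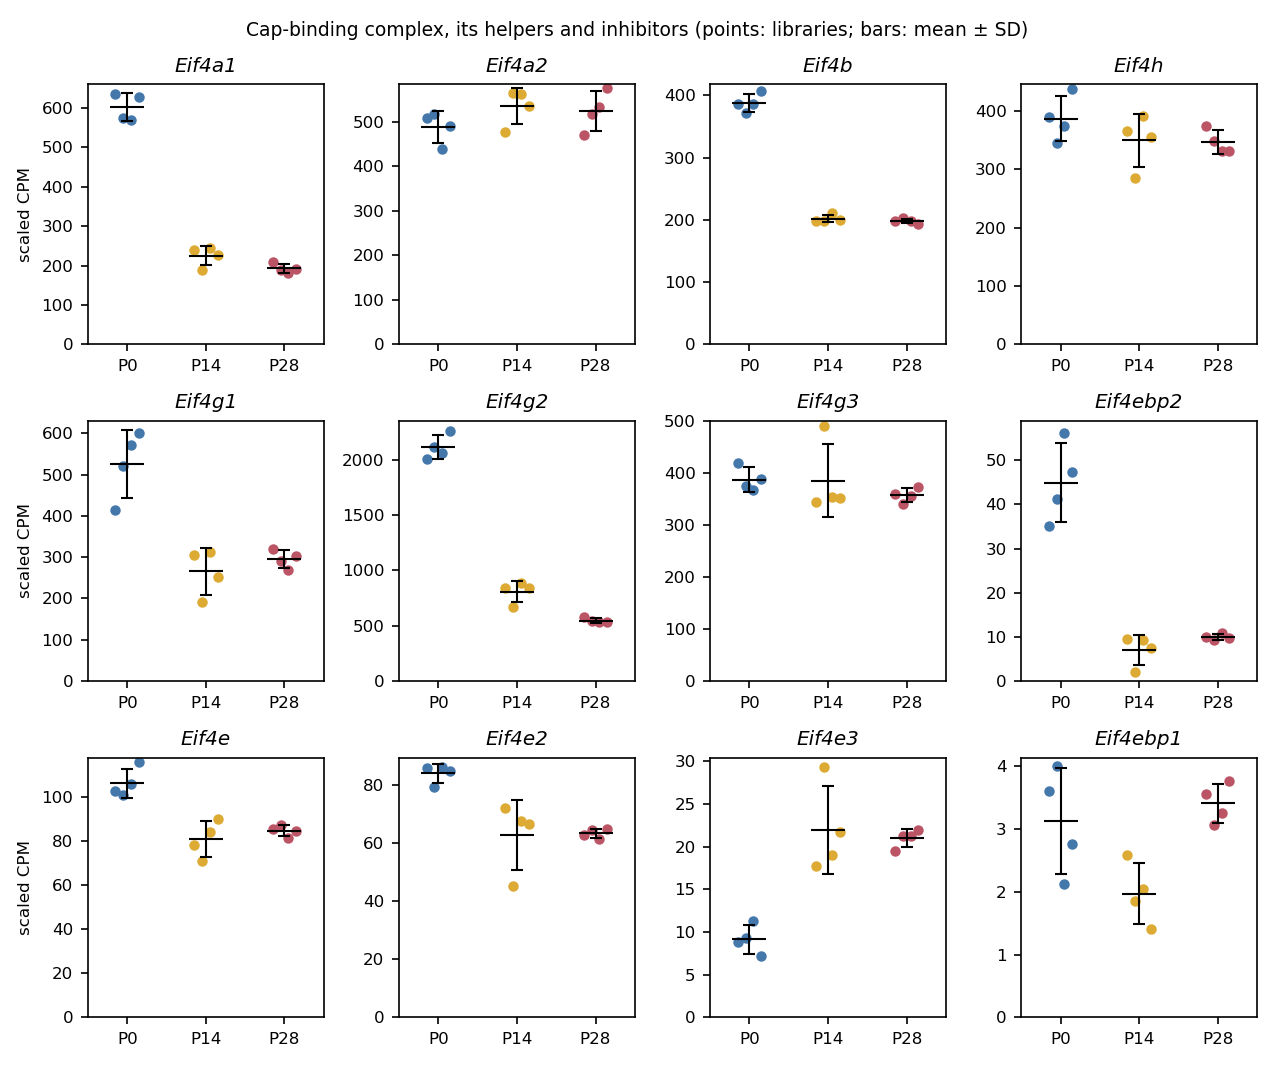
Scaled CPM of 12 genes of the cap-binding complex, its helpers and its inhibitors in each library at P0, P14 and P28, with the mean ± SD of 4 libraries. Eif4g2, Eif4a1, Eif4g1, Eif4b and Eif4ebp2 drop between P0 and P14, Eif4a2, Eif4g3 and Eif4h overlap across ages, and Eif4e3 is higher at P14 and P28.

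Of the 4 genes of inhibitors of the cap-binding complex, 3 fell at P14 (75%, against 34.5% of all genes tested), with the lowest log2 fold change of all 51 genes in Eif4ebp2. Eif4ebp2 (chr10:61428491-61452790), the main 4E-binding protein gene of mouse brain, had 35.05, 41.3, 56.2 and 47.3 scaled CPM at P0, 9.39, 2.00, 9.29 and 7.41 at P14 and 10.04, 9.17, 10.8 and 9.77 at P28. Both later ages lay below every P0 library, and the lowest value, 2.00, was that of P14 replicate 2. It fell at P14 to 0.148-fold (log2 fold change −2.76 ± 0.35, adjusted p = 9.95e-06), and without that library the log2 fold change was −2.29. Eif4enif1 (chr11:3202343-3244588), whose product carries eIF4E into the nucleus and into P-bodies, had 55.9, 63.2, 56.8 and 57.3 scaled CPM at P14, against 103, 93.98, 94.5 and 107 at P0. The ages did not overlap, and it fell (log2 fold change −0.77 ± 0.08, adjusted p = 1.58e-06). Eif4ebp1 (chr8:27260327-27275656), a weakly read sister of Eif4ebp2, had 3.61, 4.01, 2.12 and 2.77 scaled CPM at P0, 2.59, 1.86, 2.05 and 1.40 at P14 and 3.55, 3.07, 3.25 and 3.77 at P28. P14 lay lowest but overlapped P0. Eif4ebp1 fell at P14 (log2 fold change −0.54 ± 0.20, adjusted p = 0.0259) and rose at P28 against P14 (log2 fold change 0.68 ± 0.20, adjusted p = 0.0315). The first call was lost in 7 of the 26 alternatives that tested Eif4ebp1, among them those without P0 replicate 1, P0 replicate 2 or P14 replicate 4 (adjusted p 0.00681 to 0.0871), and the second in 8 (0.00919 to 0.0938), among them those without each P28 library, P14 replicate 3 or P14 replicate 4. Eif4ebp3 averaged 0.610 ± 0.341 in P0, 0.873 ± 0.302 in P14 and 1.42 ± 0.450 in P28 libraries (scaled CPM, SD, n = 4), close to the pseudocount, and passed in neither step.

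Most eIF3 genes fell at P14. eIF3 is the large scaffold that holds the small ribosomal subunit open for mRNA, and 14 of its genes were listed. Of the 13 tested, 11 fell at P14 and 0 rose (84.6%, with a median of −0.71, and 34.5% of all genes tested falling). Their summed level was 1091, 975, 1125 and 1014 scaled CPM in the P14 libraries, against 1951, 1856, 1858 and 2109 in the P0 libraries, with no overlap. All 8 genes of the octamer core (Eif3a, Eif3c, Eif3e, Eif3f, Eif3h, Eif3k, Eif3l and Eif3m) fell, with a median of −1.16. Of the other genes Eif3b, Eif3d and Eif3g fell, and Eif3i and Eif3j1 did not pass (−0.12 ± 0.08 and −0.15 ± 0.13, adjusted p = 0.177 and 0.304, with −0.08 for Eif3j1 without P14 replicate 2).

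Eif3f (chr7:108934415-108941942), a core subunit with an MPN domain, had 220.0, 173, 169.8 and 194 scaled CPM at P0, 78.3, 83.6, 73.7 and 71.7 at P14 and 66.5, 64.4, 52.9 and 58.3 at P28. Each age lay wholly below the one before. It fell at P14 (log2 fold change −1.29 ± 0.10, adjusted p = 1.44e-07) and at P28 against P14 (log2 fold change −0.35 ± 0.10, adjusted p = 0.0365). Eif3e (chr15:43250040-43282736) had 55.9, 55.7, 64.6 and 60.7 scaled CPM at P14, against 149, 143, 127 and 146 at P0, and fell (log2 fold change −1.25 ± 0.08, adjusted p = 1.90e-08). The other core genes ranged from −1.17 ± 0.10 for Eif3h to −0.42 ± 0.09 for Eif3k. Among them, Eif3a and Eif3c had 155, 96.3, 174 and 153 and 182, 95.9, 182 and 140.3 scaled CPM at P14, against 292, 335, 308 and 338 and 277, 314, 343 and 373 at P0. Both groups stood apart from P0, and P14 replicate 2 was lowest for both genes. Without it the log2 fold changes were −0.98 for Eif3a and −0.95 for Eif3c. Eif3d (chr15:77958998-77970824), a subunit that can itself bind the cap, had 94.4, 76.6, 74.4 and 91.8 scaled CPM at P0, 47.2, 61.9, 49.6 and 46.9 at P14 and 39.9, 39.6, 37.4 and 40.02 at P28. The 3 ages did not overlap, and in Eif3d P14 replicate 2 was the highest P14 library. It fell in both steps (−0.71 ± 0.11 and −0.38 ± 0.11). Eif3g, which passed at P14 (log2 fold change −0.30 ± 0.13, adjusted p = 0.0493), did not pass in 20 of 27 alternatives (adjusted p 0.000966 to 0.1496 over all of them), among them each fit without 1 of the P28 libraries, without P0 replicate 1 or 4, or without P14 replicate 1, 3 or 4. Eif3j1, whose product sits loosely on the complex and in the decoding centre, had 20.4, 17.8, 14.7 and 19.7 scaled CPM at P0, 15.7, 14.2, 17.7 and 17.3 at P14 and 16.3, 17.2, 16.9 and 19.9 at P28, and the ages overlapped. Eif3j2, a near-identical copy, had 0.0602 to 0.224 scaled CPM in P0, 0.114 to 0.456 in P14 and 0.189 to 0.465 in P28 libraries and was not tested.

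**Figure D3:**
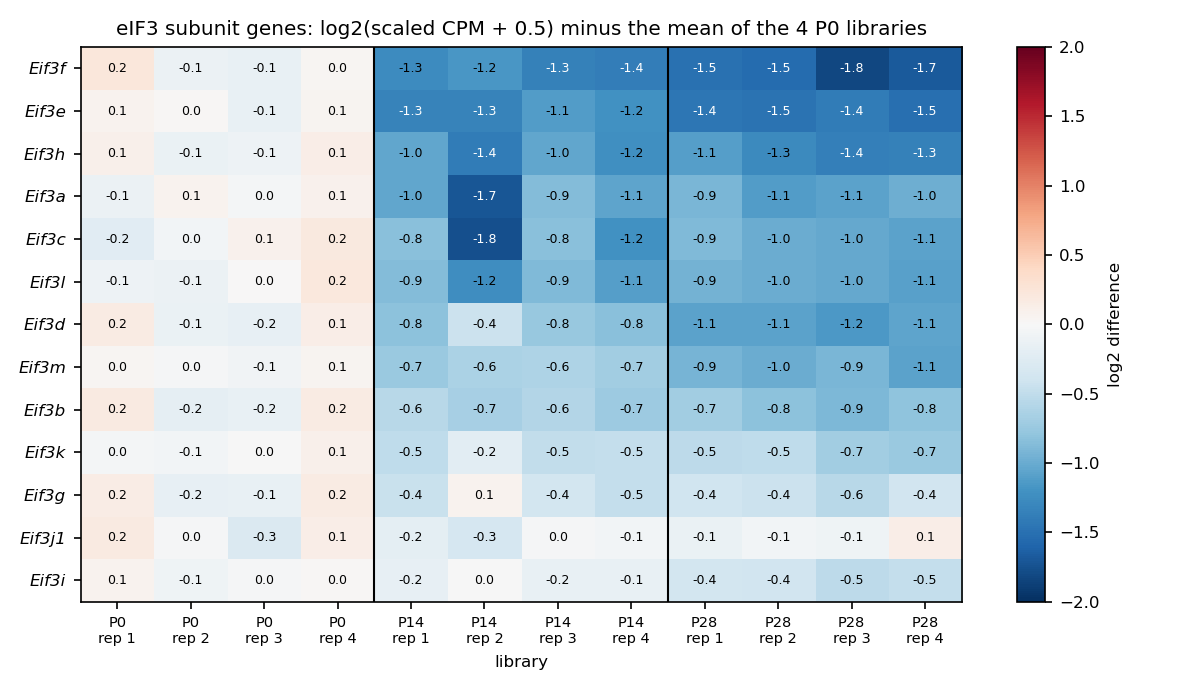
Heat map of 13 eIF3 subunit genes (rows) in the 12 libraries (columns), as log2(scaled CPM + 0.5) minus the mean of the 4 P0 libraries. The upper 6 genes fall by about 1 log2 unit or more in P14 and P28 libraries, Eif3j1 and Eif3i at the bottom stay near 0 at P14, and P14 replicate 2 deviates in Eif3a, Eif3c, Eif3d and Eif3g.

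The bases upstream of the starts were searched for 4 short motifs on both strands, and a link of any motif to the falls was not tested. RefSeq promoter sequences on GRCm38.p6 were at hand for 41 of the 53 genes, 10 of them eIF3 genes. They were not at hand for Eif1a, Eif2b3, Eif3e, Eif3h, Eif3i, Eif3j2, Eif4a3l2, Eif4e3, Eif4ebp1, Eif4ebp3, Eif4g2 and Eif6. In the 250 bases before the start the ETS motif CCGGAAG lay in 10 of 41 genes (24.4%), in 5 of the 10 eIF3 genes, in 7.05% of all 27025 genes with a sequence, and in 12.8% of the 11435 of those that were tested. The E-box CACGTG lay in 7 of 41 (17.1%, against 6.05% of all and 8.33% of the tested), the GC box GGGCGG in 29 (70.7%, against 32.9% and 58.8%) and the CRE TGACGTCA in 0 (against 1.62% and 2.69%). The start is that of the promoter sequence, and in Eif4ebp2, Eif4g3 and Eif5a2, among others, it lies inside the gene coordinates given here. A promoter was counted once per motif, and CCGCCC, the GC box read on the other strand, can share its last bases with CCGGAAG. Eif3a, Eif3b, Eif3f, Eif3j1 and Eif3k had a sequence without the ETS motif, and all of them but Eif3j1 fell at P14. Of the 26 genes with a sequence that fell at P14, 7 held the ETS motif (26.9%), near the 24.4% of all 41 genes. These matches describe letters in a window and show no binding.

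The 120 bases before the start are printed 5′ to 3′ for the 5 eIF3 genes with the ETS motif, to show where it lies, and for the eIF4A helicase genes. Capitals mark any of the 4 motifs on either strand. The windows are chr7:126566367-126566486, minus strand (Eif3c), chr15:77970825-77970944, minus strand (Eif3d), chr9:20898591-20898710, minus strand (Eif3g), chr15:79075103-79075222, plus strand (Eif3l), chr2:105017028-105017147, minus strand (Eif3m), chr11:69672424-69672543, minus strand (Eif4a1) and chr16:23107348-23107467, plus strand (Eif4a2).
Eif3c: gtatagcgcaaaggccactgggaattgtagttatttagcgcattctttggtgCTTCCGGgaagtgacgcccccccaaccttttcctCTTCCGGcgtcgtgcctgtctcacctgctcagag
Eif3d: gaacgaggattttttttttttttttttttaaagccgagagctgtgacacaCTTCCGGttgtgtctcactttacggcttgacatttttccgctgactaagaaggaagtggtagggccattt
Eif3g: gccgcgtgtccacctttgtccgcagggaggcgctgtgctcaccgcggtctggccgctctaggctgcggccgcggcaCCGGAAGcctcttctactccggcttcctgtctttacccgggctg
Eif3l: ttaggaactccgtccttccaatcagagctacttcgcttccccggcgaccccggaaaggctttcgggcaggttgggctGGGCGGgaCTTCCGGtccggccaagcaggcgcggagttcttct
Eif3m: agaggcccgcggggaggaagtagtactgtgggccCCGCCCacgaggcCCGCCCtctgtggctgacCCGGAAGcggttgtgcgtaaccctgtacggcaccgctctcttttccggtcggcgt
Eif4a1: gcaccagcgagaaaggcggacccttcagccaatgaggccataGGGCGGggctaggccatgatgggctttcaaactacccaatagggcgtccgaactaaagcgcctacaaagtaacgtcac
Eif4a2: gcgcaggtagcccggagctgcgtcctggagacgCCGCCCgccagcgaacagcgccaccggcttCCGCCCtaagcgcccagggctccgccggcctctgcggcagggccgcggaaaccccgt
The ETS letters appear as CTTCCGG in Eif3c, Eif3d and Eif3l and as CCGGAAG in Eif3g and Eif3m, and neither helicase gene holds them in its 250 bases.

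Of the 4 genes of eIF2 subunits and tRNA carriers, 3 fell at P14 (75%) and 1 rose, whereas 34.5% of all genes tested fell and 34.4% rose. eIF2 brings the initiator tRNA, and its gamma subunit genes Eif2s3x and Eif2s3y are not among the genes described. Eif2s2, the beta subunit gene (chr2:154871410-154892906), had 59.4, 54.9, 65.3 and 60.7 scaled CPM at P14, against 122, 106, 94.3 and 108 at P0. The groups stood apart and it fell (log2 fold change −0.83 ± 0.09, adjusted p = 2.93e-06). Eif2s1, the gene of the alpha subunit that the kinases phosphorylate (chr12:78862072-78887010), had 43.3, 20.4, 49.99 and 42.1 scaled CPM at P14, against 53.7, 60.1, 66.4 and 57.3 at P0. It fell (log2 fold change −0.67 ± 0.21, adjusted p = 0.0118), and P14 replicate 2 was far below the other P14 libraries, and without it the log2 fold change was −0.39 (adjusted p = 0.00156). Eif2a, which encodes another carrier of initiator tRNA and not an eIF2 subunit, had a small fall (log2 fold change −0.23 ± 0.09, adjusted p = 0.0384) that was lost in 15 of 27 alternatives (adjusted p 0.00412 to 0.184), among them the fits without P0 replicate 2, 3 or 4, P14 replicate 1, 3 or 4, or P28 replicate 2, 3 or 4.

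Eif2d, whose product can also deliver tRNA and recycles ribosomes (chr1:131153172-131187659), had 48.8, 45.4, 47.2 and 40.2 scaled CPM at P0, 62.2, 87.2, 57.4 and 66.6 at P14 and 70.7, 63.4, 69.02 and 70.3 at P28. All P14 libraries lay above all P0 libraries. It rose at P14 (log2 fold change 0.57 ± 0.12, adjusted p = 0.000806) and did not pass in the later step (0.02 ± 0.12, adjusted p = 0.936). The locus of Eif2d overlaps that of Rassf5, a Ras effector gene, over 11250 bases. Rassf5 averaged 31.7 ± 2.85 scaled CPM at P14 and 6.14 ± 1.18 at P0 (SD, n = 4, 2.29 ± 0.14), and whether reads of Rassf5 were counted for Eif2d was not tested.

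Of the 4 kinases that phosphorylate eIF2, 2 fell at P14 (50%, against 34.5% of all genes tested). Eif2ak2, the gene of PKR, which senses double-stranded RNA (chr17:78850504-78882572), had 3.12, 2.06, 2.99 and 1.76 scaled CPM at P14, against 6.68, 8.24, 7.86 and 5.16 at P0. The ages did not overlap, and it fell (log2 fold change −1.34 ± 0.20, adjusted p = 3.92e-05). Eif2ak2 had only 40 to 113 reads per library. Its locus overlaps the transcribed pseudogene Gm6548 over 2041 bases and Gm26637 over 689 bases. Eif2ak3, the gene of PERK, the kinase of the endoplasmic reticulum (chr6:70844484-70905241), had 50.1, 47.4, 50.5 and 42.7 scaled CPM at P0, 35.5, 40.4, 35.9 and 35.2 at P14 and 48.6, 48.9, 50.6 and 47.1 at P28. P14 lay below both other ages without overlap. Eif2ak3 fell at P14 (log2 fold change −0.37 ± 0.09, adjusted p = 0.00166), rose at P28 against P14 (log2 fold change 0.41 ± 0.09, adjusted p = 0.00618), and both calls held in all 27 alternatives. Eif2ak1 (HRI, the haem-regulated kinase) and Eif2ak4 (GCN2, the sensor of uncharged tRNA) did not pass in either step, with −0.12 ± 0.08 and 0.23 ± 0.22 at P14, the second being −0.04 without P14 replicate 2.

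eIF2B recharges eIF2 with GTP, and variants in the human genes of its subunits cause vanishing white matter disease. Of its 5 genes, 2 fell at P14 (40%, near the 34.5% of all genes tested). Eif2b3, the gamma subunit gene (chr4:117019399-117086852), had 16.5, 16.02, 18.3 and 15.4 scaled CPM at P14, against 30.1, 25.96, 23.7 and 25.9 at P0, and fell (log2 fold change −0.66 ± 0.11, adjusted p = 0.000166). Eif2b5, the gene of the catalytic epsilon subunit (chr16:20498795-20509325), had 96.4, 79.3, 90.9 and 85.2 scaled CPM at P0, 67.5, 76.3, 70.04 and 70.9 at P14 and 61.8, 59.97, 55.1 and 57.99 at P28. Each age lay below the one before, and both steps passed (log2 fold change −0.30 ± 0.08, adjusted p = 0.00576, and log2 fold change −0.28 ± 0.08, adjusted p = 0.0369). The later call was lost in 10 of 27 alternatives (adjusted p 0.00540 to 0.108), among them the fits without each P28 library or without P14 replicate 3 or 4. Eif2b1, the alpha subunit gene (chr5:124570214-124579131), had 41.1, 33.7, 36.9 and 38.6 scaled CPM at P0, 36.1, 34.5, 38.2 and 33.7 at P14 and 29.3, 26.5, 26.4 and 28.1 at P28. P14 overlapped P0 and P28 lay below both, and it fell in the later step (log2 fold change −0.36 ± 0.09, adjusted p = 0.0151), except without P28 replicate 3 (adjusted p = 0.0506). Eif2b4, the delta subunit gene, had 56.1, 101, 56.1 and 55.1 scaled CPM at P14, against 56.97, 43.1, 46.4 and 50.5 at P0. Its high value came from P14 replicate 2, and neither step passed (0.40 ± 0.17, adjusted p = 0.0510, and −0.50 ± 0.17, adjusted p = 0.0562). Without it the change at P14 was 0.19 (adjusted p = 0.0760). A rise at P14 passed in 9 of 27 alternatives, among them the fits without P0 replicate 1 or P14 replicate 1, 3 or 4 (adjusted p 0.0249 to 0.139), and the later step passed as a fall in 6, among them the fit without P14 replicate 2 (log2 fold change −0.29, adjusted p = 0.0309, and 0.0196 to 0.126 over the alternatives).

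Start codon selection rests on eIF1 and eIF1A. Eif1 (chr11:100319949-100322099) had 268, 205, 177 and 223 scaled CPM at P0, 201, 247, 211 and 215 at P14 and 195, 189, 162 and 178 at P28, and P14 overlapped P0 (0.01 ± 0.12, adjusted p = 0.935, 95% confidence interval −0.25 to 0.27). Eif1b (chr9:120492606-120495327), which encodes a close relative of eIF1, had 202, 161, 162 and 183 scaled CPM at P0, 80.5, 115, 85.5 and 90.7 at P14 and 86.2, 80.4, 78.99 and 77.5 at P28. All P14 libraries lay below all P0 libraries, and it fell (log2 fold change −0.93 ± 0.11, adjusted p = 6.82e-06). Eif1a (chr18:46597704-46610225) had 55.5, 56.00, 55.9 and 58.6 scaled CPM at P0, 40.5, 34.9, 49.8 and 49.1 at P14 and 38.7, 39.1, 41.1 and 42.2 at P28, and its fall at P14 passed (log2 fold change −0.39 ± 0.11, adjusted p = 0.00638). Its X-linked counterpart Eif1ax (chrX:159372178-159389621) had 182, 218, 207 and 241 scaled CPM at P0, 185, 109, 209.8 and 206 at P14 and 119.6, 125, 119 and 113 at P28. P28 lay below all P14 libraries other than replicate 2, whose value was the lowest of all 12. Eif1ax fell in the later step (log2 fold change −0.53 ± 0.17, adjusted p = 0.0494), and this call was lost in 20 of 27 alternatives, among them every fit without 1 library other than P14 replicate 2, without which the log2 fold change was −0.75 (adjusted p 5.06e-05 to 0.130 over the alternatives). Eif1ad, named for a domain like that of eIF1A, passed in neither step, and passed at P14 without P14 replicate 2 or without P0 replicate 3 (adjusted p 0.00839 to 0.273 over the alternatives).

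Of the 5 genes of subunit joining and later factors, 3 fell at P14 (60%, against 34.5% of all genes tested). Eif5, whose product makes eIF2 hydrolyse GTP at the start codon (chr12:111538101-111546753), had 336, 289, 272 and 324 scaled CPM at P0, 230.0, 232, 253 and 228 at P14 and 163, 176, 187 and 174 at P28. Each age lay below the one before, and it fell in both steps (log2 fold change −0.37 ± 0.09, adjusted p = 0.00207, and log2 fold change −0.43 ± 0.09, adjusted p = 0.00525). Eif5a, the gene of the hypusine-bearing factor that helps ribosomes over difficult peptide bonds (chr11:69916712-69921958), had 293, 322, 343 and 391 scaled CPM at P0, 260.1, 215, 256 and 257 at P14 and 212, 211, 194 and 186 at P28. The 3 ages did not overlap. Eif5a fell at P14 (log2 fold change −0.44 ± 0.10, adjusted p = 0.00168) and did not pass in the later step (−0.30 ± 0.10, adjusted p = 0.0605), which it did in 7 of 27 alternatives, among them those without P0 replicate 1, P0 replicate 4 or P14 replicate 2 (adjusted p 0.00875 to 0.156).

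Its paralog Eif5a2 (chr3:28781032-28798846) had 15.3, 22.3, 18.2 and 27.3 scaled CPM at P0, 24.1, 12.2, 26.2 and 24.5 at P14 and 35.5, 33.3, 34.00 and 31.4 at P28. P28 lay above every other library, and P14 replicate 2 was the lowest of all. Neither step passed (0.04 ± 0.22, adjusted p = 0.885, and 0.67 ± 0.22, adjusted p = 0.0516), and the later one passed in 6 of 27 alternatives, among them the fits without P0 replicate 1 or 4 and without P14 replicate 2 or 3 (adjusted p 0.0303 to 0.115). Without P14 replicate 2 its log2 fold change was 0.42, and the change at P14 against P0 was 0.29. Against P0, Eif5a2 was higher at P28 (log2 fold change 0.71 ± 0.22, adjusted p = 0.0112), except without both merged libraries (adjusted p = 0.0561). The locus overlaps the lncRNA gene Gm32950 over 8208 bases. Eif6, which keeps the large subunit from joining too early and is needed to build it (chr2:155819837-155826925), had 46.4, 47.9, 49.9 and 45.4 scaled CPM at P14, against 66.4, 62.4, 64.3 and 83.2 at P0, and fell (log2 fold change −0.53 ± 0.11, adjusted p = 0.000600). Eif5b, the gene of the subunit-joining GTPase, overlapped between ages (−0.21 ± 0.11, adjusted p = 0.122), and without P14 replicate 2 it passed at P14 (adjusted p = 0.0394). Its locus overlaps Rev1 over 2794 bases, and that of Eif5a overlaps Gps2 over 345 bases. Eif4a3, the helicase of the exon junction complex and not of the cap, had 47.1, 56.1, 49.1 and 41.8 scaled CPM at P14, against 94.7, 84.7, 89.99 and 109 at P0. It fell (log2 fold change −0.96 ± 0.11, adjusted p = 3.27e-06). Eif4a3l2, a listed copy that RefSeq calls a pseudogene, stayed below 0.5 scaled CPM in all 12 libraries and was not tested.

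**Figure D4:**
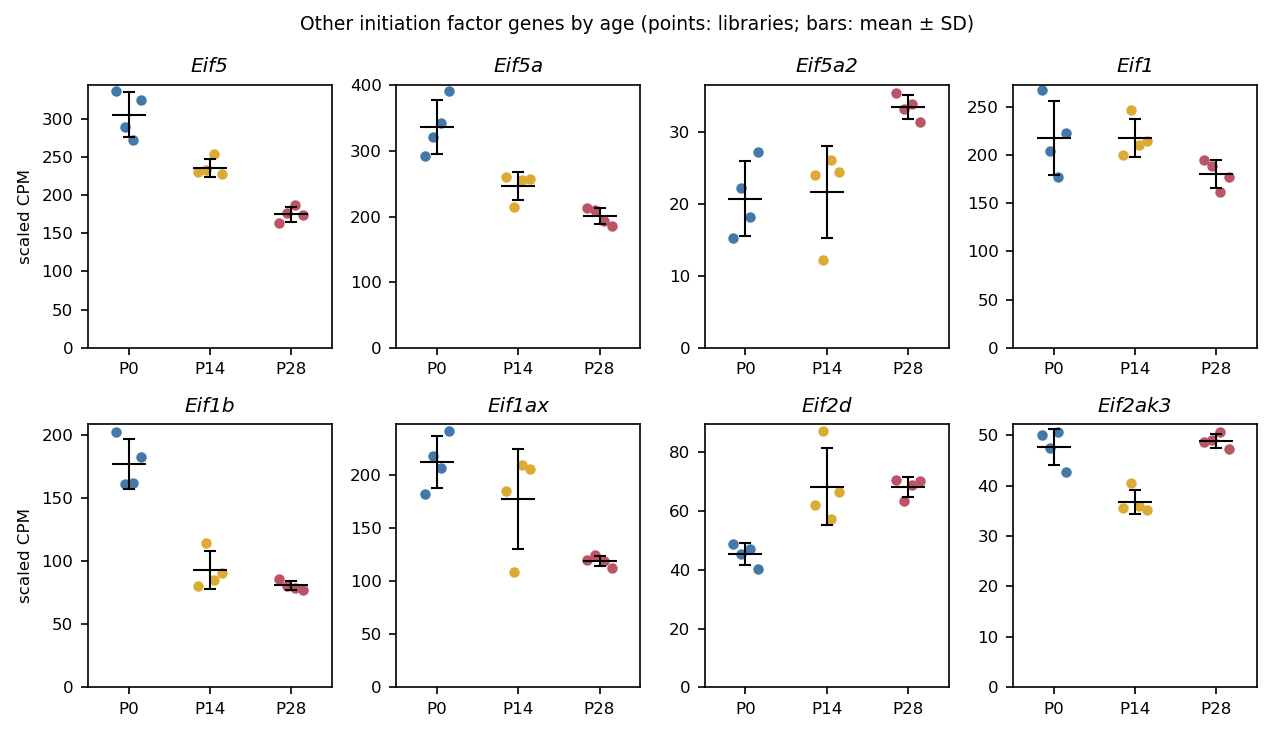
Scaled CPM of 8 further initiation factor genes in each library at P0, P14 and P28, with the mean ± SD of 4 libraries. Eif5 and Eif5a step down at each age, Eif5a2 is higher at P28, Eif1 overlaps between P0 and P14 while Eif1b drops, and Eif2ak3 is lowest at P14.

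Between P14 and P28 fewer genes changed. Of the 51 tested, 9 fell (Eif1ax, Eif2b1, Eif2b5, Eif3d, Eif3f, Eif3i, Eif3m, Eif4g2 and Eif5) and 2 rose (Eif2ak3 and Eif4ebp1), which is 17.6% and 3.92% of them, whereas 9.09% of all genes tested fell and 9.22% rose (18.3% in either direction). The median log2 fold change was −0.08, against −0.01 for all genes tested. Of the 9, 6 had also fallen at P14 and 3 had not passed then. Eif3i, a subunit of the eIF3 module that holds eIF3b and eIF3g (chr4:129591974-129600648), had 80.1, 79.2, 71.7 and 74.1 scaled CPM at P28, against 92.7, 102, 92.9 and 93.8 at P14. The ages did not overlap, and it fell (log2 fold change −0.32 ± 0.08, adjusted p = 0.0110). Eif3m (chr2:104999656-105017027) had 44.9, 43.3, 45.7 and 40.98 scaled CPM at P28, against 51.6, 55.3, 56.1 and 53.01 at P14, and fell as well (log2 fold change −0.30 ± 0.08, adjusted p = 0.0150). The falls of Eif4g2, Eif5 and Eif3i and the rise of Eif2ak3 held in all 27 alternatives. The count of falls was 4 to 14 over the fits without 1 library, with 14 without P14 replicate 2, 5 without P28 replicate 2 and 4 without P28 replicate 3 or P28 replicate 4, and the count of rises was 1 to 3, with 3 without P0 replicate 1, P0 replicate 4 or P14 replicate 2 and 1 without P14 replicate 4 or any 1 of the P28 libraries. The calls of Eif3d, Eif3f and Eif3m were lost in 6, 9 and 2 of 27 alternatives, all 3 without P28 replicate 4, Eif3d also without each other P28 library, and Eif3f also without P28 replicate 2 or 3 or P14 replicate 1, 3 or 4 (adjusted p 0.0081 to 0.085, 0.0137 to 0.114 and 0.000118 to 0.0624).

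Set against P0 directly, 34 genes were lower at P28 and 4 were higher (Eif2d, Eif4e3, Eif4ebp3 and Eif5a2), 66.7% and 7.84% of those tested, whereas 35.6% of all genes tested were lower and 35.7% higher (71.2% in either direction). This comparison shares its libraries with both steps. The median log2 fold change was −0.62, and 12 genes (23.5%) were lower by at least 2-fold, as were 18% of all genes tested. Summed over all 53 genes, the level was 5455, 5290.1, 5158 and 5278 scaled CPM in the P28 libraries, against 9427, 9229.8, 9177 and 10149 in the P0 libraries. The largest differences were those of Eif4ebp2 (−2.10 ± 0.35), Eif4g2 (−1.96 ± 0.10), Eif4a1 (−1.64 ± 0.09) and Eif3f (−1.63 ± 0.10). Eif4ebp3, with 1.28, 1.26, 1.06 and 2.07 scaled CPM at P28, against 0.723, 1.021, 0.472 and 0.224 at P0, rested on few reads (log2 fold change 0.81 ± 0.25, adjusted p = 0.00991). Its P28 libraries alone met the filter of 1 scaled CPM in 4 libraries, and of its P0 values only 1.021 reached that level. Its place among the 4 higher genes is therefore not independent of the filter.

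The balance between related genes was compared as the log2 ratio of their levels within a library, which library scaling does not touch beyond the pseudocount. None of 22 tests, 11 pairs over 2 steps, passed after Benjamini-Hochberg adjustment, and the exact two-sided permutation test of 4 against 4 libraries cannot give less than 0.0286. That smallest value was reached in 11 tests, where the libraries of the ages did not overlap, and each then had an adjusted p of 0.0571. The log2 ratio of Eif4a1 to Eif4a2 was −1.25 ± 0.24 at P14 and 0.30 ± 0.10 at P0 (SD, n = 4). Per kilobase of GENCODE transcript, Eif4a1 averaged 119.6 scaled CPM at P14 and 319.8 at P0, and Eif4a2 197.6 at P14 and 180.5 at P0. So Eif4a1 stood above Eif4a2 in every P0 library and below it in every P14 library. For Eif1 and Eif1b the log2 ratio was 1.24 ± 0.10 at P14 and 0.29 ± 0.12 at P0, and per kilobase Eif1 averaged 165.2 at P14 and 165.2 at P0 and Eif1b 101.3 at P14 and 193.1 at P0. Per kilobase the order of this pair turned in every library as well. The ratio of Eif1 to Eif1b was then 0.758 to 0.920 in P0 and 1.49 to 1.73 in P14 libraries. That turn rests on the transcript lengths used, 1322 bases for Eif1 and 917 for Eif1b. In scaled CPM the order did not turn, and Eif1 stood above Eif1b in every library of both ages.

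The ratio of Eif4g1 to Eif4g2 was higher at each age than at the one before, with −1.62 ± 0.17 at P14, against −2.02 ± 0.19 at P0, and −0.88 ± 0.07 at P28, against −1.62 ± 0.17 at P14. Ratios that were lower at P14 than at P0 without overlap were those of Eif4e to Eif4e3 (by −1.60), Eif4g1 to Eif4g3 (−0.98) and Eif4b to Eif4h (−0.79), and that of Eif4ebp1 to Eif4ebp2 was higher (2.22). P14 replicate 2 lay furthest from P0 in Eif4e to Eif4e3 (1.25, against 2.11, 2.11 and 2.02 in the other P14 libraries). It did so too in Eif4g1 to Eif4g3 (−1.36, against −0.17, −0.18 and −0.48) and in Eif4ebp1 to Eif4ebp2. In Eif4b to Eif4h it lay nearest P0 (−0.52, against −0.88, −0.89 and −0.84). The ratio of Eif5a to Eif5a2 was lower at P28 than at P14 (−0.97). Here P14 replicate 2 lay furthest from P28, at 4.08, against 3.40, 3.27 and 3.37 in the other P14 libraries. Those of Eif4e to Eif4e2 and of Eif1a to Eif1ax overlapped in both steps. The pair of elongation factor genes Eef1a1 and Eef1a2, known for a switch after birth in mouse neurons, was taken as a yardstick. Its log2 ratio was 0.64 ± 0.13 at P14, against 4.32 ± 0.15 at P0, and −0.15 ± 0.04 at P28, against 0.64 ± 0.13 at P14. Without P14 replicate 2, 13 of the 22 tests passed after adjustment, and the smallest p of 3 against 4 libraries is again 0.0286. Whether tests at that smallest p pass depends on how many of the 22 reach it. No conclusion is drawn from these passes.

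**Figure D5:**
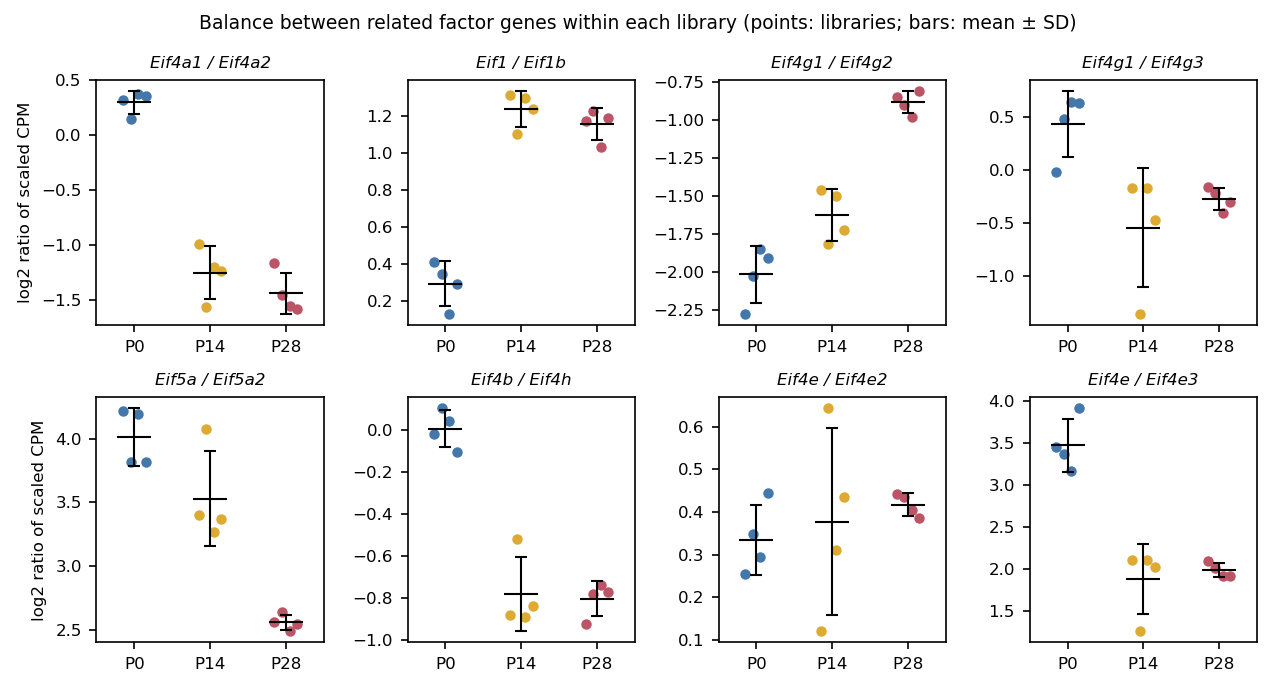
Log2 ratio of the levels of 2 related genes in each library at P0, P14 and P28, with the mean ± SD of 4 libraries, for 8 pairs. The ratios of Eif4a1 to Eif4a2 and of Eif1 to Eif1b separate P0 from both later ages, that of Eif4g1 to Eif4g2 climbs at each age, and that of Eif4e to Eif4e2 overlaps throughout.

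Other genes of translation control did not share one direction. Of 30 regulators of initiation, 14 fell (46.7%) and 8 rose at P14 against P0, with a median of −0.26. In that step 34.5% of all genes tested fell and 34.4% rose. The 3 with the smallest adjusted p were Impact, which inhibits GCN2 in neurons, Pabpc1, the gene of the poly(A)-binding protein that contacts eIF4G, and Mknk2, the gene of an eIF4E kinase. Impact rose (log2 fold change 1.93 ± 0.12, adjusted p = 1.36e-08), with 228, 236, 264 and 292 scaled CPM at P14, against 83.7, 67.6, 54.1 and 62.1 at P0. Pabpc1 fell (log2 fold change −1.32 ± 0.10, adjusted p = 6.80e-08), with 119, 92.1, 124 and 105 scaled CPM at P14, against 281, 270.2, 288 and 261 at P0. Mknk2 fell (log2 fold change −0.97 ± 0.09, adjusted p = 7.38e-07). At P28 against P14, where 9.22% of all genes tested rose and 9.09% fell, 5 of the 30 rose and 1 fell. They were led by Cyfip2 (log2 fold change 0.87 ± 0.16, adjusted p = 0.00254), Ddit3 (log2 fold change 0.77 ± 0.16, adjusted p = 0.00543) and Tsc2 (log2 fold change 0.35 ± 0.08, adjusted p = 0.0113), and the others, named after their values were seen, were Mknk2 and Tsc1, which rose, and Mcts1, which fell.

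Of 14 genes of elongation and termination, 9 fell (64.3%) and 4 rose at P14, with a median of −0.61, whereas 34.5% of all genes tested fell and 34.4% rose. Eef1g (−1.61 ± 0.11, adjusted p = 2.03e-08), Eef1b2 (−1.45 ± 0.11, adjusted p = 8.93e-08) and Eef1a1 (−2.24 ± 0.17, adjusted p = 9.73e-08), the last the gene of the factor that brings charged tRNA, had the smallest adjusted p. Eef1a1 had 3158, 3004, 3152 and 3176 scaled CPM at P0, 821, 418, 798 and 694 at P14 and 643, 598, 533 and 572 at P28, and Eef1a2 had 138, 152, 157 and 179 scaled CPM at P0, 515, 239, 562 and 460.4 at P14 and 707, 661, 612 and 619.6 at P28. The ages of both genes stood apart from P0. The 4 that rose, named after their values were seen, were Eef1a2, Gspt2, Dhps and Dohh, and the products of Dhps and Dohh make the hypusine of eIF5A. At P28 against P14, 3 fell (Eef1b2, Eef1e1 and Etf1, −0.39 ± 0.11, −0.30 ± 0.10 and −0.29 ± 0.10) and 0 rose. The falls were 21.4% of the 14, and of all genes tested 9.09% fell and 9.22% rose.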

How the data were processed

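The authors deposited 1 table per age, and the unit of its values is signal, a normalized read count. Per the submitters' processing notes DESeq2 and mm10 were used. The sources used here do not give the aligner, counter, strand, annotation or filters. Each value was, within 0.05 reads, a whole multiple of a step of its library (100% of values), and division by that step gave back whole reads. There were 27219 genes listed for P0, 28826 for P14 and 30150 for P28, and 0 columns had no sample. Each column was divided by its total over the 25834 shared genes (CPM), which removes the authors' factor, and by a median-of-ratios factor over all 12 libraries (0.936 to 1.04). A gene entered the test if 4 libraries or more reached 1 scaled CPM. The test was on log2(scaled CPM + 0.5), which understates changes of low genes, with limma 3.58.1 (trend and robust, 3 ages, 12 libraries, two-sided) and Benjamini-Hochberg adjustment over all genes tested. Recovered reads per library ranged from 13195973 to 33611769, with 2.28 to 3.95% of them in a library's top 10 genes.

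Values per library are given for the 2 largest rises and 2 largest falls of P14 against P0 in each role, every gene past the threshold at P28 against P14, and both genes of each pair. Of the other pathway genes, up to 3 per list and step with the smallest adjusted p are named. The genes, lists and tests were chosen with earlier results of these data known, and Rassf5 and Gpr27 after their values were seen. Ratios of pairs were tested by exact two-sided permutation (70 arrangements). 1 further excitatory marker is not reported here. Of 12 pairs, that of Eif3j1 and Eif3j2 was not tested. RefSeq (GRCm38.p6) gave coordinates and promoters by gene symbol. Transcript lengths are those of the longest protein coding transcript per symbol in an older GENCODE annotation. The 27 alternatives covered the pseudocount (0.1 and 2), filter, scaling, limma settings, edgeR 4.0.16, DESeq2 1.42.0, thinning, a replicate block and leaving out libraries. R 4.3.3 and Python 3.11.15 were used, and the code was tested on simulated data.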

Additional observations from a re-analysis of the deposited data

Results flagged for a closer look

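In 10 of 153 groups of 4 libraries, 1 library lay so far from the other 3 that its gap to the nearest took over the share of the group's range that Dixon's test allows at 95%. Chance gives this in about 1 in 20 groups. Of the 10, 8 were in P14 replicate 2. That library was high, in scaled CPM, in Eif2ak3 (40.4), Eif2ak4 (81.2), Eif2b4 (101.2), Eif3i (102.5), Eif3k (92.1) and Eif4g3 (491), and low in Eif5a (215) and Eif5a2 (12.2). The other 2 were Eif4b, highest in P14 replicate 3 (210.5), and Eif4enif1, highest in P28 replicate 4 (68.0), a merged library.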

How the results depend on the processing

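Over all 27 alternatives, 30 of 33 falls and 2 of 2 rises held at P14 against P0, 3 of 9 falls and 1 of 2 rises at P28 against P14, and 34 of 34 falls and 3 of 4 rises at P28 against P0. Eif2ak2, Eif4ebp1 and Eif4ebp3 were tested in 26 of them, since the filter of mean 5 scaled CPM left them out. Low read numbers limited Eif3j2, Eif4a3l2, Eif4ebp1 and Eif4ebp3. Without both merged libraries 4 of the genes fell and 1 rose at P28 against P14, and 887 of all genes tested fell and 848 rose. The rise of 1 gene also came from the filter of mean 5 scaled CPM and from thinned reads. Leaving out 1 library at a time gave 4 to 14 falls and 1 to 3 rises among the genes in that step, 899 to 2096 falls and 876 to 1952 rises among all genes tested, and 0 to 13 ratio tests past the threshold. The count test of edgeR on the recovered reads had 31 of the genes fall and 3 rise at P14 against P0 (5123 and 5711 of all genes tested), 11 and 2 at P28 against P14 (1664 and 1338), and 34 and 4 at P28 against P0 (5434 and 5660). No change of sign took a gene that had passed to the other side of 0. The cause of the differences was not tested.

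Changes of sign were those of values near 0. At P14 against P0 they were Eif1 (−0.00049 under upper quartile scaling, −0.0050 with thinned reads), Eif2b1 (0.011, library total), Eif4g3 (0.062 with library total, 0.028 with TMM, 0.0031 with quantile normalization, 0.030 with edgeR, 0.0014 with DESeq2, 0.016 without both merged libraries) and Eif5a2 (−0.095 without both merged). At P28 against P14 they were Eif2ak4 (−0.034 edgeR, −0.028 DESeq2), Eif2d (−0.019 library total, −0.0025 quantile, −0.010 edgeR, −0.0052 DESeq2, −0.0055 thinned), Eif3l (−0.021 library total, −0.0010 quantile, −0.00090 edgeR, −0.016 thinned), Eif4e2 (−0.0025 library total) and Eif4h (0.0078 thinned, 0.013 without both merged). At P28 against P0 it was Eif3j1 (0.0078 library total, 0.0046 TMM, 0.029 thinned).

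Over the fits without 1 library the log2 fold change at P14 against P0 ranged from −0.096 to 0.11 for Eif1, −0.041 to 0.35 for Eif2ak4, −0.14 to 0.027 for Eif4g3 and −0.098 to 0.29 for Eif5a2. At P28 against P0 it was −0.027 to 0.054 for Eif2ak3, −0.15 to 0.012 for Eif3j1 and −0.020 to 0.24 for Eif4ebp1. At P28 against P14 it was −0.20 to 0.021 for Eif2ak2, −0.057 to 0.33 for Eif2ak4, −0.070 to 0.040 for Eif2b2, −0.061 to 0.14 for Eif2d, −0.37 to 0.060 for Eif2s1, −0.039 to 0.25 for Eif3a, −0.032 to 0.28 for Eif3c, −0.057 to 0.068 for Eif3l, −0.082 to 0.022 for Eif4a2, −0.028 to 0.11 for Eif4a3, −0.12 to 0.11 for Eif4e2, −0.13 to 0.11 for Eif4e3, −0.14 to 0.027 for Eif4g3 and −0.10 to 0.051 for Eif4h.

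Same-numbered libraries of different ages correlated by −0.51 to 0.36 in their deviations from the age means, with 3 of 12 pairs over 0.1 and 3 libraries correlating best with their own number, so the numbers were not taken to pair the samples. With the replicate number as a block, 32 genes fell and 2 rose at P14 against P0, 6 fell and 2 rose at P28 against P14, 34 were lower and 4 higher at P28 against P0, and 0 ratio tests passed.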
